A study of Mus musculus with 4 samples.

Results

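A cluster of 10 zinc finger genes on mouse chromosome 4 was followed across the 4 arrays of a knockout study of Mgat5, which encodes an N-acetylglucosaminyltransferase that branches N-glycans. The genes are Zfp980, Zfp987, Zfp600, Zfp992, Zfp981, Rex2, Zfp985, Zfp979, Zfp534 and Zfp984, in their RefSeq order along the chromosome. They were picked by gene symbol, 10 of the 19505 genes named on the array, and each had 1 probe set, so 10 probe sets of 22206 are described. The choice was made with the difference between knockout and control already known. That difference is therefore given as a description with no test, and nothing rests on it.

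The RNA came from MC38, a murine colon adenocarcinoma line, and was read on the Clariom S mouse array, which gives 1 summarised signal for each probe set. The knockout group held clone 1 and clone 2, a pair of MC38 clones in which Mgat5 was targeted with CRISPR-Cas9. The control group held MOCK, which carries an empty vector, and WT, the control line without it, with n = 2 arrays per group and 1 array per cell population. Both knockout arrays come from clones and neither control is titled as one, so a difference that comes with cloning cannot be told apart from one that comes with Mgat5 loss. All values are deposited log2 signals unless quantile normalization is named, and no source used here says that the arrays were separate cultures, so SDs and p-values measure the spread between these arrays only. In RNA from a whole culture, fewer cells with a transcript and less of it per cell cannot be told apart.

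KRAB zinc finger proteins are a large family of transcriptional repressors. Their zinc fingers bind DNA, and their KRAB domain recruits Trim28, which in turn brings Setdb1, a histone H3 lysine 9 methyltransferase, and HP1 proteins, so that the bound site is packed into heterochromatin. Many bind endogenous retroviruses, and the genes themselves lie in clusters of near copies that grew by tandem duplication. Zfp979 is listed in RefSeq under the synonym Ssm1b, a modifier of DNA methylation that acts on a transgene in early mouse embryos.

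The start regions of these genes were shown first because the members resemble each other there, and the resemblance uses no signal from the arrays. The promoter table of RefSeq, build GRCm38.p6, holds 300 bases for each start, 250 before it and 50 after it. It matched 9 of the 10 members. Zfp992 was not matched. Zfp600 has 2 listed starts, of which the one more like the other members was taken. The 36 pairs among the 9 promoters were identical at 71.8% to 99.7% of aligned positions, with a median of 84.8%. Zfp600 and Rex2 differed at 1 of 300 aligned positions, Rex2 and Zfp979 at 4 of 294, and Zfp987 and Zfp534 at 7 of 255. Zfp984 stood furthest from the rest, with a median identity of 75.8% to the other members, followed by Zfp981 at 80.3%.

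**Figure D1:**
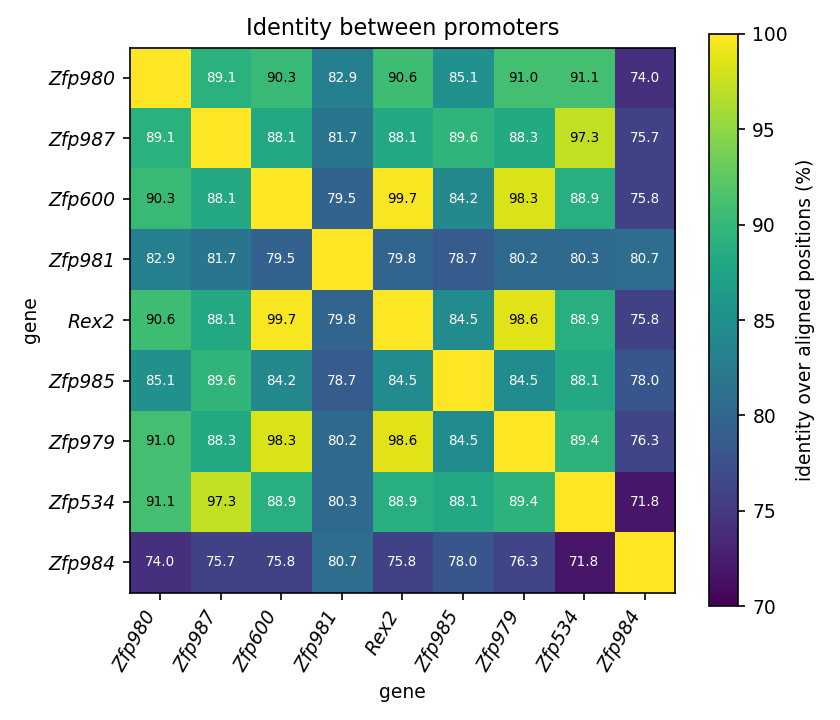
Percent identity between the 300-base start regions of the 9 members with a promoter in RefSeq (GRCm38.p6), by global alignment with free ends, with genes on both axes, and colour for percent identity. Zfp600, Rex2 and Zfp979 form the most alike group at 98.3% to 99.7%, and Zfp984 lies at 71.8% to 80.7% from every other member.

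A run of 15 letters, TGGGAAGCTAATTAA, was the longest found in all 9 promoters. Searched on both strands, it was present in 12 of the 32851 promoters of the table, or 0.0365%. The 3 others belong to Gm13212, Zfp982 and Zfp988, which lie in the same stretch of chromosome 4 and were not analysed here, and 0 lie elsewhere in the genome. The run was found in these promoters and then counted, so the count is a description. It begins 106 to 164 bases before the annotated start. A second shared block, ATTGGGCG, begins 68 bases after the start of that run in 8 members and 69 bases after it in Zfp981. The stretch from the run to the block, with both in capitals, is shown for the members and for the 3 neighbours that were not analysed.
Zfp980, chr4:145670556-145670632, plus strand: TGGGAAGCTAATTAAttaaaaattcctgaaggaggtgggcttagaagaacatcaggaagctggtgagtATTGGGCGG
Zfp987, chr4:146097161-146097237, plus strand: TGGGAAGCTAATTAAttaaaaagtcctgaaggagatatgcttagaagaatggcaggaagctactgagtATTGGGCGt
Zfp600, chr4:146156692-146156768, plus strand: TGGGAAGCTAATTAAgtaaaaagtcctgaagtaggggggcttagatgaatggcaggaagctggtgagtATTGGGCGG
Zfp981, chr4:146514756-146514833, plus strand: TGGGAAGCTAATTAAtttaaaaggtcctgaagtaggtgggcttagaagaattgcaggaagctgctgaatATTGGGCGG
Rex2, chr4:147021715-147021791, plus strand: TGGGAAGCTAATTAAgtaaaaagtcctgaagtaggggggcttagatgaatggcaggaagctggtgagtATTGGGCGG
Zfp985, chr4:147553141-147553217, plus strand: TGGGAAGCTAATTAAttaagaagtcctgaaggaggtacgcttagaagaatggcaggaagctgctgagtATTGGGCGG
Zfp979, chr4:147642573-147642649, minus strand: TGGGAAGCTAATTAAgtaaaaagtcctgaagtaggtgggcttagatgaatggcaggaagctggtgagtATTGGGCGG
Zfp534, chr4:147702661-147702737, minus strand: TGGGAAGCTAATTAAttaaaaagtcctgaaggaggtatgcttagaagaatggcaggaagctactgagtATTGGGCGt
Zfp984, chr4:147809866-147809942, minus strand: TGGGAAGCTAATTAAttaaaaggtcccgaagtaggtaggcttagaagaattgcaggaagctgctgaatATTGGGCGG
Gm13212, chr4:145585060-145585136, plus strand: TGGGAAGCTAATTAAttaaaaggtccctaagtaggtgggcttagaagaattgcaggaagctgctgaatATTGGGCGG
Zfp988, chr4:147305490-147305566, plus strand: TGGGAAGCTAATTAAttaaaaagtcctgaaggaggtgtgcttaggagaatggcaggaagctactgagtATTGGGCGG
Zfp982, chr4:147492266-147492342, plus strand: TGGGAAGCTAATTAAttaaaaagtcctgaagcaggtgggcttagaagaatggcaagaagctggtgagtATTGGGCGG

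The second block joins a CCAAT box, read as ATTGG on the other strand, to a GC box, GGGCGG, with an overlap of 2 letters. CCAAT, searched on both strands, was found in 9 of 9 member promoters and in 37.4% of all promoters. GGGCGG was found in 7 of 9 and in 35.7% of all, and not in the windows of Zfp987 and Zfp534. The joined block ATTGGGCGG was found in the same 7 members and in 0.256% of all promoters. TATAAA was found in 0 of 9 and in 13.6% of all, and TGACGTCA, the cAMP response element, in 0 of 9 and in 1.79% of all. The dinucleotide CG occurred 3 to 9 times in each 300-base member promoter, with a median of 5, against a median of 7 over all promoters. Such matches are letters in a window and say nothing about the binding of any factor.

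The 250 bases before the start of Zfp980, which was among the members furthest apart between the groups, of Zfp984, the least alike promoter, and of Zfp933, a zinc finger gene next to the members whose signals overlapped between the groups, are given for comparison. Capitals mark the same 2 blocks.
Zfp980, chr4:145670447-145670696, plus strand: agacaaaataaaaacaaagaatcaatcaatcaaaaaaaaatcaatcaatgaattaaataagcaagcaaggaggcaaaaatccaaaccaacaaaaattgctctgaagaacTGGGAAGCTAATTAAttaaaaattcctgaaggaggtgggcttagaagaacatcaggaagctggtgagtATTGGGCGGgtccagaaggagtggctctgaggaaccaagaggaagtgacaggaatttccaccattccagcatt
Zfp984, chr4:147809789-147810038, minus strand: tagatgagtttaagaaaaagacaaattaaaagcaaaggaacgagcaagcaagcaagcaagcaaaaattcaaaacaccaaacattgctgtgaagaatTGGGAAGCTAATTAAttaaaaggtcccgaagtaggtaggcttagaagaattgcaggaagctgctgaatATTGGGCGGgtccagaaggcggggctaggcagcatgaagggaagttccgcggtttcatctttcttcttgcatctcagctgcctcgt
Zfp933, chr4:147848419-147848668, minus strand: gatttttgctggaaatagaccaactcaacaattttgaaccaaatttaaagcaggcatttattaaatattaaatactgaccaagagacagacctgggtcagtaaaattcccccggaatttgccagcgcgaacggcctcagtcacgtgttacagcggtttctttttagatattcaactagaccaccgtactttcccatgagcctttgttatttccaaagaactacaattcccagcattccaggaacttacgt
The Zfp933 promoter shared 0 runs of 14 letters with any member promoter.

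The arrays as a whole were checked before the members were read. The upper quartile of the 22206 probe sets ran from 9.39 to 9.60 log2 units in the clones and from 8.87 to 9.26 in the controls, with WT lowest. The median difference over all probe sets, knockout minus control, was 0.18 log2 units, or -0.02 after quantile normalization, a shift that lies under every deposited difference given here. The shift was not the same at every signal level. Array medians ran from 5.45 to 5.62 in the clones and from 5.34 to 5.46 in the controls, closer together than the upper quartiles. The 5222 negative control features had medians from 5.12 to 5.22 log2 units over the arrays and upper quartiles from 6.29 to 6.56, which set the background. Mgat5 stood at 7.46 and 7.57 log2 units in clone 1 and clone 2, against 8.19 in MOCK and 8.27 in WT, a difference of -0.71 (SE 0.37) that did not pass (limma adjusted p = 0.631). After quantile normalization it was -1.11 (SE 0.31, limma adjusted p = 0.419). Of 9 epithelial markers, 7 fell under the negative-control median on all 4 arrays, Epcam, Cdh1 and Krt20 among them, so most epithelial markers were not above background in a line labelled colon adenocarcinoma. None of 7 mesenchymal markers fell under that median on all 4 arrays, though Col1a1 did on 3 and Col1a2 on 2. By group means 5 of the 7 were higher in the knockout, or 3 after quantile normalization. Over all 22206 probe sets 14460 were higher, or 10723 after quantile normalization. Limma called 0 of the 7, with 2 at an unadjusted p under 0.05, Fn1 (higher) and Dcn (lower). Fn1 stood at 15.34 and 16.10 in the clones, against 14.81 in MOCK and 14.39 in WT (difference 1.12, SE 0.41, limma adjusted p = 0.476). Vim stood at 17.28 and 17.07 in clone 1 and clone 2, against 17.43 in MOCK and 16.53 in WT. Dcn, a matrix proteoglycan, stood at 8.94 and 11.18 in the clones, against 12.95 in MOCK and 13.61 in WT (difference -3.22, SE 0.63, limma adjusted p = 0.121), and its part in the differences of the zinc finger genes was not tested. All 5 measured leukocyte and all 3 endothelial markers lay below the negative-control median on every array.

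Each of the 10 zinc finger genes had a signal in either clone above its signal in either control. Signal shared between near copies was not separated, so the 10 are not counted as independent measurements. The median difference over the 10, knockout minus control, was 3.17 log2 units, or 8.99-fold, and 2.72 after quantile normalization. Over all probe sets, 27.8% showed that order of the arrays, and 19.2% did so after quantile normalization. Limma called 9 of the 22206 probe sets (0.0405%) at an adjusted p under 0.05, 8 of them higher (0.036%). After quantile normalization it called 1 (0.0045%), which was higher. The contrast was used to choose the genes, so these shares stand beside the count and no more is read from them. The members ranked from 2 to 654 among all 22206 probe sets by difference, and from 2 to 920 after quantile normalization, with Zfp992 last in both.

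**Figure D2:**
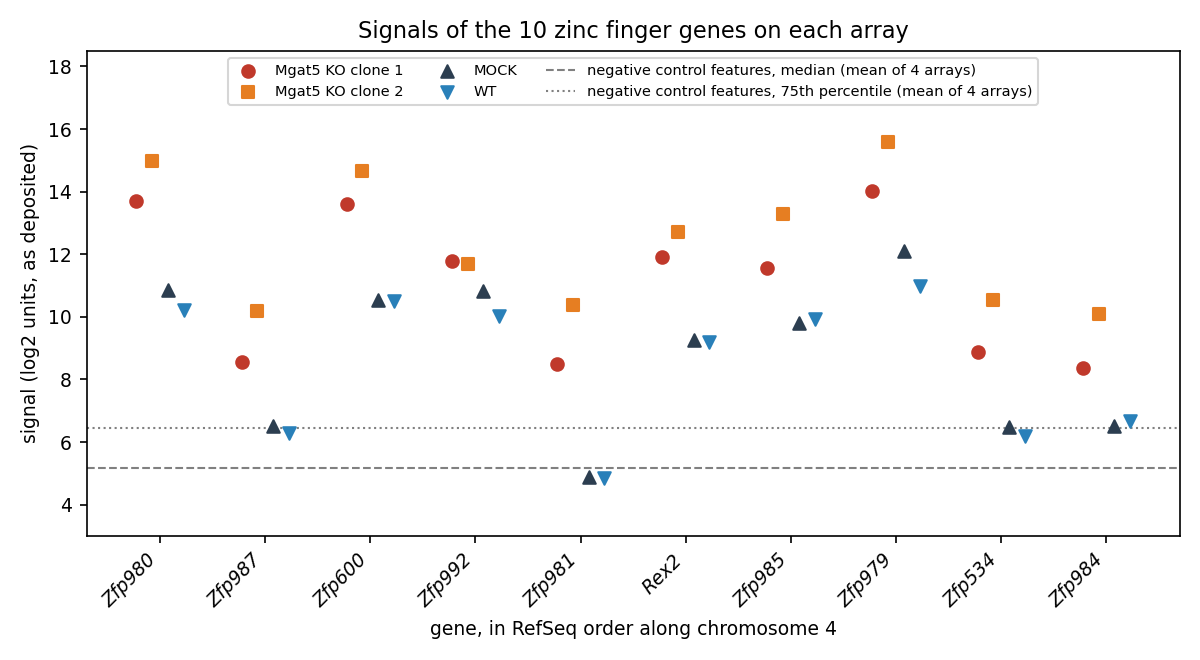
Signal of each zinc finger gene in log2 units, as deposited, with genes in RefSeq order and 1 point per array (clone 1, clone 2, MOCK, WT); lines mark the median and upper quartile of the negative control features. For every gene both clone points lie above both control points, and both control points of Zfp981 lie below the lower line.

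Zfp981 had the widest difference. Its signal was 8.50 log2 units in clone 1 and 10.37 in clone 2, against 4.87 in MOCK and 4.85 in WT. Both control signals fell under the negative-control median, so its control level is not measured above background. With signals floored at that median the difference was 4.26 log2 units, so the mean of the clones was at least 19.2-fold higher, and clone 2 alone at least 36.7-fold higher.

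Zfp980 and Zfp600, by contrast, were well above background in the controls and still far apart between the groups. Zfp980 stood at 13.68 and 14.98 log2 units in clone 1 and clone 2, against 10.85 in MOCK and 10.21 in WT, a 13.97-fold difference of the means. Zfp600 stood at 13.59 and 14.67 in clone 1 and clone 2, against 10.55 in MOCK and 10.50 in WT, a 12.2-fold difference. Rex2, whose promoter is nearly that of Zfp600, stood at 11.91 and 12.72 in clone 1 and clone 2, against 9.26 in MOCK and 9.21 in WT, an 8.45-fold difference. MOCK minus WT was 0.05 log2 units in both Zfp600 and Rex2 as deposited, and -0.49 in Zfp600 and -0.36 in Rex2 after quantile normalization. In all 3 genes the clones did not overlap with the controls.

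Zfp979, the Ssm1b gene, was high on every array. Its signal was 14.03 in clone 1 and 15.58 in clone 2, against 12.10 in MOCK and 10.996 in WT, a 9.57-fold difference of the means, 14.81 ± 1.09 against 11.55 ± 0.78 (SD, n = 2 each). Its controls were 1.11 log2 units apart, the widest gap between MOCK and WT among the 10, and 0.50 apart after quantile normalization. The lower clone still stood 1.93 log2 units above the higher control.

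The 3 members Zfp534, Zfp987 and Zfp984 had control signals near the upper quartile of the negative controls, where a signal holds little above background. Zfp534 stood at 8.89 and 10.53 in clone 1 and clone 2, against 6.49 in MOCK and 6.19 in WT, a difference of 3.37 log2 units. Zfp987 stood at 8.56 and 10.18 in the clones, against 6.52 in MOCK and 6.28 in WT, a difference of 2.97 log2 units. Zfp984 stood at 8.35 and 10.08 in the clones, against 6.52 in MOCK and 6.67 in WT, a 6.14-fold difference. Both controls of Zfp534 and Zfp987, and 1 control of Zfp984, lay below that quartile, and none of the clone signals did, so no fold is given for Zfp534 and Zfp987.

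Zfp985 stood at 11.56 and 13.29 log2 units in clone 1 and clone 2, against 9.80 in MOCK and 9.94 in WT, a 5.88-fold difference. Zfp992 had the smallest difference of the 10. Its signal was 11.80 in clone 1 and 11.70 in clone 2, against 10.84 in MOCK and 10.04 in WT, a 2.48-fold difference of the means that became 1.85-fold after quantile normalization. Zfp992 was also the 1 member whose lower clone stood less than 1 log2 unit above the higher control, by 0.86, or 0.62 after quantile normalization. Over all probe sets, 1.37% had a gap of at least 1 log2 unit in that direction, or 0.779% after quantile normalization.

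The clones differed from the controls by unequal amounts. In clone 1 the members lay 1.36 to 3.63 log2 units above the control mean, with a median of 2.52, and in clone 2 they lay 1.26 to 5.51 above it, with a median of 3.91. After quantile normalization the medians were 2.17 in clone 1 and 3.44 in clone 2. All 10 members were at least 1 log2 unit above the control mean in clone 1, where 6.31% of all probe sets were, and all 10 in clone 2, where 11.8% were. After quantile normalization the counts were 10 in clone 1, beside 3.94% of all probe sets, and 9 in clone 2, beside 5.41%, with Zfp992 at 0.77.

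**Figure D3:**
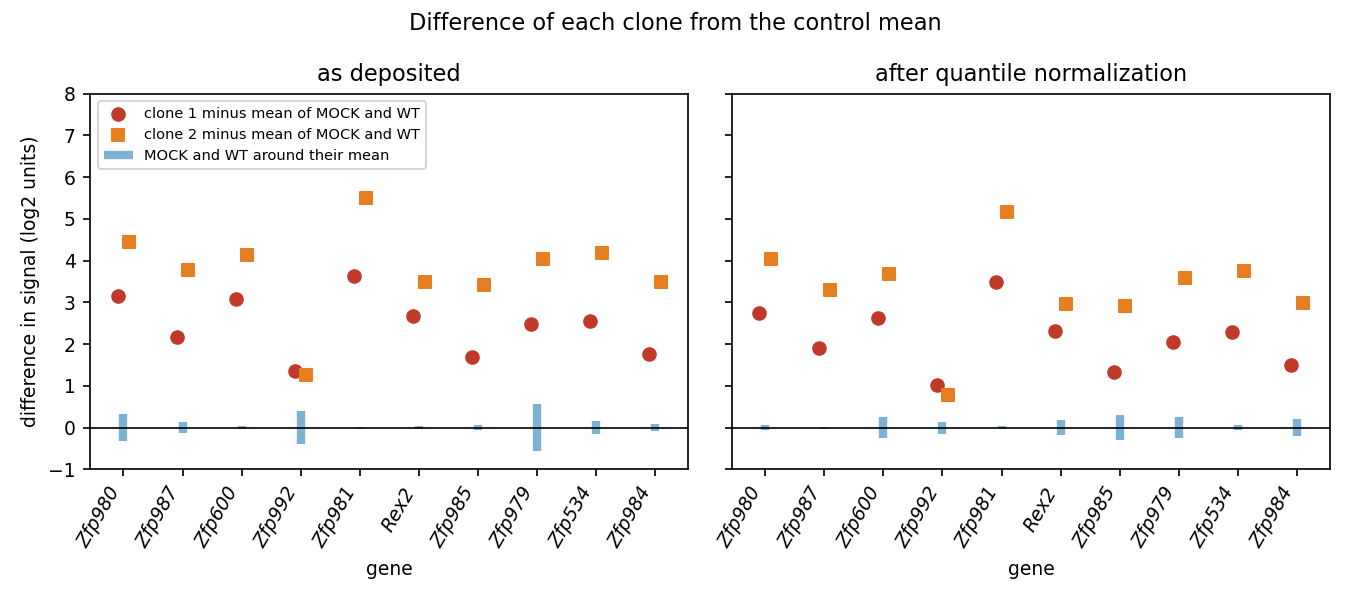
Difference of clone 1 (circles) and clone 2 (squares) from the mean of MOCK and WT for each zinc finger gene, in log2 units, as deposited (left) and after quantile normalization (right); blue bars span MOCK and WT around their mean. Clone 2 lies above clone 1 for 9 of the 10 genes in both panels, and Zfp992 is the exception.

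Clone 2 had the higher signal in 9 of the 10. The difference between the clones, clone 2 minus clone 1, had a median of 1.58 log2 units over the members and ran from -0.09 in Zfp992 to 1.87 in Zfp981. It was at least 1 log2 unit in 8 members, all but Zfp992 and Rex2, where Rex2 was at 0.81. Among all probe sets 8.6% were that far higher in clone 2, and the median of all was 0.13. After quantile normalization the member median was 1.43, the same 8 members were past 1 log2 unit, and 5.54% of all probe sets were. With 1 array per clone there is no test of this difference.

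The ratio of the 2 clones' differences was not the same for every gene. Measured from the control mean, the difference in clone 2 was 0.93 times that in clone 1 for Zfp992 and 2.02 times for Zfp985 on the log2 scale, with a median of 1.57. Zfp985 was 3.23-fold higher in clone 1 and 10.7-fold higher in clone 2, and Zfp984 was 3.38-fold and 11.2-fold higher in the same order. Rex2 was 6.39-fold higher in clone 1 and 11.2-fold higher in clone 2, and Zfp992 2.56-fold and 2.40-fold. Rex2 and Zfp984 thus had the same fold in clone 2 and unlike folds in clone 1. The controls of Zfp984 lay near the upper quartile of the negative controls and those of Rex2 did not, so these folds are not measured alike. In the order of the genes by fold, Zfp981 and Zfp980 came first and Zfp984, Zfp985 and Zfp992 last in both clones, and the other 5 genes changed places.

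Between the controls the members differed by unequal amounts. MOCK minus WT had a median of 0.15 log2 units over the 10, beside 0.27 over all probe sets. It ran from -0.15 in Zfp984 to 1.11 in Zfp979. A signed median follows the offset between the arrays and does not measure how close the controls are. Only Zfp979 reached 1 log2 unit, 1 of 10 members, where 8.79% of all probe sets did, so the members' share was near that of all. After quantile normalization the median was -0.02, with a range from -0.60 in Zfp985 to 0.50 in Zfp979. None of the 10 then reached 1 log2 unit, where 1.85% of all probe sets did. The SD within the control pair ran from 0.02 in Zfp981, where both controls lay below the negative-control median, to 0.78 in Zfp979. That within the clone pair ran from 0.07 in Zfp992 to 1.32 in Zfp981.

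None of the measured genes beside and between the members was called by limma. RefSeq lists 68 genes from Zfp980 to Zfp984, of which 46 are pseudogenes and 15 code for protein. Of the 68, 12 were named alone on an array probe set, the 10 members and the transcribed pseudogenes Gm13238 and Gm13034. The protein-coding genes Zfp993, Zfp978, Zfp991, Zfp988 and Zfp982 of this stretch were not analysed here. Gm13238 stood at 8.77 and 8.99 log2 units in clone 1 and clone 2, against 8.95 in MOCK and 8.97 in WT, and Gm13034 at 8.06 and 8.15, against 8.55 in MOCK and 8.06 in WT. Both lie between Zfp980 and Zfp987 in annotation order, and in both the groups overlapped as deposited. With quantile normalization both clones lay below both controls in each gene. The differences were then -0.52 in Gm13238 (limma adjusted p = 0.66) and -0.59 in Gm13034 (limma adjusted p = 0.605).

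**Figure D4:**
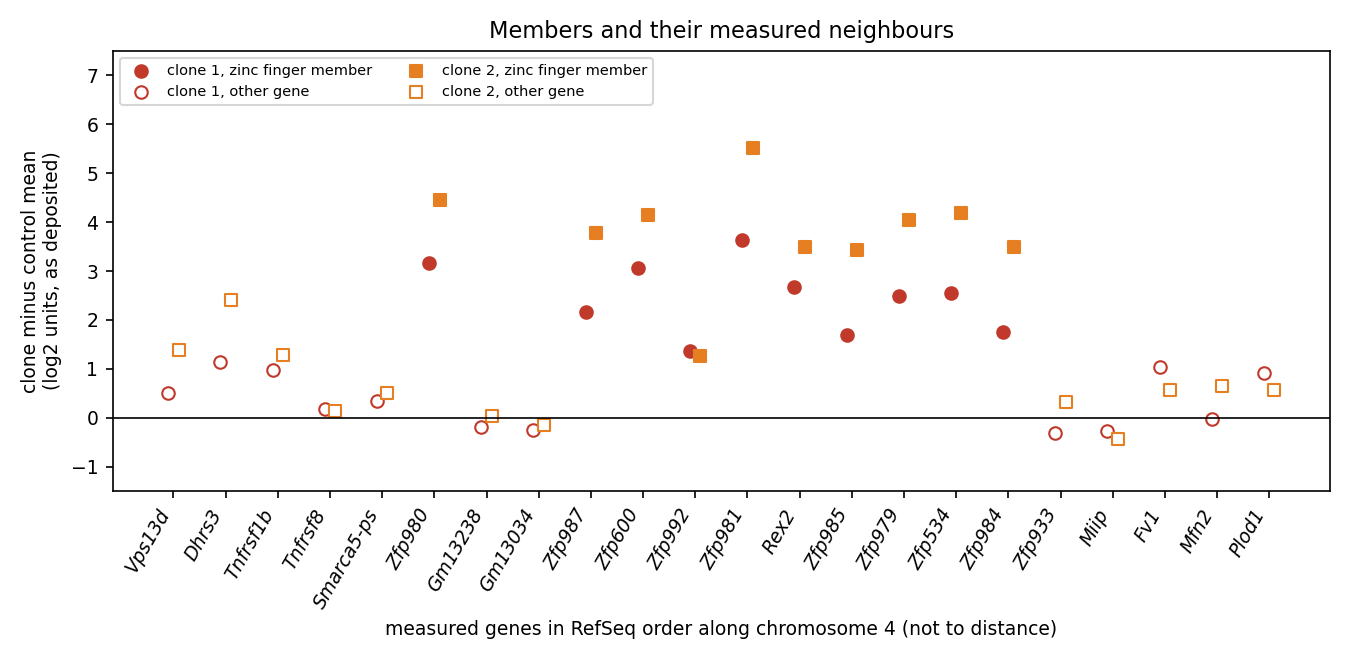
Difference of clone 1 (circles) and clone 2 (squares) from the mean of MOCK and WT, in log2 units as deposited, for 22 measured genes in RefSeq order along chromosome 4, without regard to distance; filled points are the zinc finger members and open points the other genes. The filled points lie between 1.26 and 5.51, and the pseudogenes Gm13238 and Gm13034 between them lie at -0.24 to 0.03.

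The first measured gene beyond Zfp984 overlapped between the groups. It is Zfp933, a zinc finger gene itself, which stood at 8.34 and 8.97 in clone 1 and clone 2, against 9.10 in MOCK and 8.20 in WT (difference 0.01, SE 0.44, limma adjusted p = 0.997). Miip, an inhibitor of cell migration, fell under the negative-control median on every array. Fv1, which restricts murine leukaemia virus, stood at 7.73 and 7.27 in the clones, against 6.83 in MOCK and 6.58 in WT, and did not pass (difference 0.80, SE 0.39, adjusted p = 0.597). Mfn2, a mitochondrial fusion protein, differed by 0.31 and the collagen hydroxylase Plod1 by 0.74, with adjusted p of 0.864 and 0.662 by limma.

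Before Zfp980, the transcribed pseudogene Smarca5-ps stood at 14.64 and 14.80 in the clones, against 14.72 in MOCK and 13.89 in WT, and overlapped. Tnfrsf8, a receptor of the same family as Tnfrsf1b, fell under the negative-control median on every array. Tnfrsf1b, a receptor for tumour necrosis factor, stood at 9.33 and 9.65 in the clones, against 8.28 in MOCK and 8.43 in WT (difference 1.13, SE 0.38, limma adjusted p = 0.404). Dhrs3, a retinaldehyde reductase, stood at 5.83 and 7.08 in the clones, against 4.25 in MOCK and 5.12 in WT, with both controls under the negative-control median (adjusted p = 0.328). Vps13d, a lipid transfer protein, differed by 0.95 (SE 0.42, adjusted p = 0.557).

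Over the 12 measured genes beside or between the members, 9 were higher in the knockout by group means. Over all probe sets 14460 of 22206 were. Both clones lay above both controls in 5 of the 12 and below both in 1, or in 4 and 3 after quantile normalization. Of the 5 genes before Zfp980, 3 had both clones above both controls, with and without quantile normalization. The median of the 12 was 0.37 log2 units as deposited and 0.04 with quantile normalization. Limma called 0 of the 12, with 3 at an unadjusted p under 0.05 (Vps13d, Dhrs3 and Tnfrsf1b), and 0 after quantile normalization, with 1 such gene. Over 1157 measured genes of chromosome 4 outside this stretch the median difference was 0.30, or 0.09 after quantile normalization. Both clones lay above both controls in 37.2% of those, beside the 27.8% of all probe sets. After quantile normalization they did in 328 of the 1157, beside 19.2% of all probe sets. The deposited share was not particular to chromosome 4. It was 35.9% in the 348 other Zfp genes and 43.3% in the 30 genes of the KRAB silencing machinery, both described below.

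Among zinc finger genes elsewhere in the genome limma made no call. Of 348 other genes with Zfp symbols, 257 were higher in the knockout by group means, where 14460 of all 22206 probe sets were. The median of the 348 was 0.38 log2 units. With quantile normalization 209 were higher, where 10723 of all probe sets were, and the median was 0.08. Limma called 0 of the 348, with 32 at an unadjusted p under 0.05 and 28 after quantile normalization, and the lowest adjusted p was 0.164. After quantile normalization 1980 of all 22206 probe sets had an unadjusted limma p under 0.05. Only Zfp992 among the members lay inside the range of these genes, whose highest difference was 1.83. The 5 with the largest differences by size were Zfp267, Zfp593, Zfp975, Zfp521 and Zfp385b. Zfp593 stood at 8.37 and 8.95 in clone 1 and clone 2, against 6.83 in MOCK and 6.84 in WT (difference 1.83, SE 0.39, adjusted p = 0.164). Zfp267 stood at 4.90 and 4.15 in the clones, both under the negative-control median, against 6.95 in MOCK and 5.88 in WT. Zfp975 stood at 8.37 and 8.74 in the clones, against 7.69 in MOCK and 6.05 in WT, and Zfp521 and Zfp385b fell under the negative-control median on every array.

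**Figure D5:**
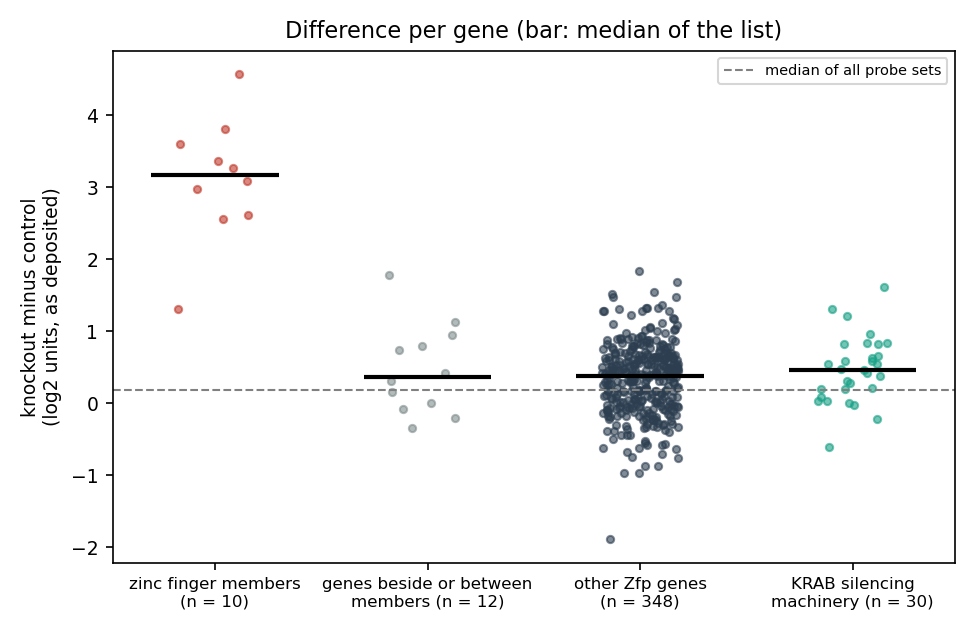
Difference of each gene, knockout minus control, in log2 units as deposited, for the 10 zinc finger members, the 12 measured genes beside or between them, 348 other Zfp genes and 30 genes of the KRAB silencing machinery; bars are list medians and the dashed line is the median of all probe sets (0.18). The members lie at 1.31 to 4.57 with a median of 3.17, against list medians of 0.37, 0.38 and 0.46. After quantile normalization, not drawn, the member median was 2.72 and the list medians 0.04, 0.08 and 0.05, beside -0.02 over all probe sets.

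The genes through which KRAB zinc finger proteins act did not pass the test. Of 30 measured genes for co-repressors, histone and DNA methylation and heterochromatin, 27 were higher in the knockout by group means. Over all probe sets 14460 of 22206 were. Limma called 0 of the 30, with 4 at an unadjusted p under 0.05. The list median was 0.46 log2 units, or 0.05 after quantile normalization, where 15 were higher and 15 lower. Trim28, the co-repressor bound by KRAB domains, stood at 8.86 and 8.78 in clone 1 and clone 2, against 8.95 in MOCK and 8.68 in WT (difference 0.01, SE 0.37, adjusted p = 0.996). With quantile normalization its difference was -0.41 (SE 0.30, limma adjusted p = 0.726), and both clones lay below both controls. That order then held in 6 of the 30 genes, and the reverse order in 7. Over all probe sets, 19.2% had both clones above both controls after quantile normalization. As deposited, 13 of the 30 had both clones above both controls and 1 had both below. Of all probe sets 27.8% had both above as deposited, and the share with both below was not counted. Setdb1 stood at 11.35 and 10.81 in the clones, against 10.77 in MOCK and 10.22 in WT (difference 0.58, SE 0.41, adjusted p = 0.725).

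The largest differences in that list were those of Daxx, Atf7ip, Resf1 and Cbx5. Daxx, a histone chaperone, stood at 9.82 and 10.57 in clone 1 and clone 2, against 8.91 in MOCK and 8.26 in WT (difference 1.61, SE 0.43, limma adjusted p = 0.283). Atf7ip, a partner of Setdb1, stood at 8.85 and 10.64 in the clones, against 8.99 in MOCK and 7.89 in WT, with clone 1 between the controls. Resf1, which takes part in silencing endogenous retroviruses, differed by 1.21 (SE 0.47, adjusted p = 0.497) and Cbx5, an HP1 protein, by 0.97 (SE 0.41, adjusted p = 0.542). With clone 1 left out, the difference was 2.20 in Atf7ip and 1.99 in Daxx. Clone 2 alone then stands for the knockout, so no test is given.

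Several KRAB zinc finger genes of this kind are active in pluripotent cells, so markers of those cells were read too. Of 13 markers of pluripotent and early embryo cells, 9 fell under the negative-control median on all 4 arrays, among them Pou5f1, Nanog and Zfp42, and limma called 0, with 1 at an unadjusted p under 0.05. Pou5f1 stood at 3.47 and 3.17 in clone 1 and clone 2, against 3.37 in MOCK and 3.18 in WT. By group means 8 of the 13 were higher in the knockout and 5 lower, near the share of all probe sets, 14460 of 22206 higher. Sox2 alone stood above that median on all 4 arrays, at 6.61 and 7.83 in the clones, against 9.20 in MOCK and 9.01 in WT (difference -1.89, adjusted p = 0.23 by limma). Usp17la went the other way, at 5.26 and 5.38 in the clones, against 4.48 in MOCK and 4.56 in WT, with both controls under the negative-control median. Zscan4c, a marker of the early embryo, stood at 6.69 in clone 1 and 4.73 in clone 2, against 4.92 in MOCK and 4.27 in WT.

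Genes outside the stretch were ranked by how closely they followed the members over the 4 arrays. The likeness was measured as the root mean square distance between a gene's signals, centred over the 4 arrays, and the median centred profile of the 10. The nearest was Krt80, a keratin gene on chromosome 15, at a distance of 0.12 log2 units, against 0.12 for Zfp987 and Zfp534, the nearest members, and 1.10 for Zfp992, the farthest. Krt80 stood at 8.45 and 9.79 in clone 1 and clone 2, against 6.34 in MOCK and 5.85 in WT. The next were Eqtn, a sperm protein gene elsewhere on chromosome 4, at 0.31, Nqo1, a quinone reductase, at 0.32, Nupr1, a stress-induced nuclear protein, at 0.38, Rnf31, a ubiquitin ligase, at 0.40 and Ifi209, an interferon-inducible gene, at 0.41. Both controls of Eqtn lay under the negative-control median, and both controls of Krt80 and 1 of Ifi209 under the upper quartile of the negative controls. Control signals at that level hold little above background. A likeness over 4 arrays is a description of those arrays.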

How the data were processed

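The authors deposited 1 table of log2 signals, made with the Transcriptome Analysis Console per the submitters' processing notes; the sources used here name neither its version, the normalization nor the genome build. The log2 scale was read from the values. The table held 28846 features, of which 6640 control features were left out and 22206 probe sets tested, with 0 columns left without a sample. Symbols came from the platform annotation and matched RefSeq GRCm38.p6 by Entrez identifier for 19572 probe sets. Probe sets annotated with more than 1 symbol were tested but not assigned to a gene.

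Groups followed the sample titles, because a cell label naming the knockout stands on all 4 samples. Limma 3.58.1 under R 4.3.3 (lmFit, eBayes, no covariate) compared knockout with control, with Benjamini-Hochberg adjustment over 22206 probe sets and a threshold of 0.05; it was tested on simulated data. The small number of arrays, 2 per group, limits the precision. The members and the lists were chosen with earlier results of these data known. The named genes are the members, the measured genes between them and the 5 beyond each end, the 4 machinery genes and 5 other Zfp genes with the largest differences, Trim28, Setdb1, and the 6 genes nearest in profile, and the single cell type markers printed were picked after their values were seen. Promoters were aligned with Biopython 1.88. No probe sequences were used here, so signal shared between near copies was not separated.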

Additional observations from a re-analysis of the deposited data

How the results depend on the processing

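The difference of every member kept its direction under each of 8 alternatives, 80 values in all from 0.89 to 5.51 log2 units. Of these, 78 moved by less than the spread between arrays, taken as the standard error of the difference from the group SDs. With 2 arrays per group, leaving out 1 array cannot move a difference past that spread. Nor can it reverse the direction where both clones lie above both controls, so these counts are no test of stability. After quantile normalization the member median was 2.72 for the knockout, 2.17 for clone 1 and 3.44 for clone 2, and the medians were 0.0385 for the genes beside and between the members, 0.0535 for the KRAB silencing machinery and 0.0765 for other Zfp genes. Leaving out 1 array in turn gave member medians from 2.52 to 3.91 for the knockout, 2.22 to 2.70 for clone 1 and 3.61 to 4.03 for clone 2. It gave 0.17 to 0.64 for the genes beside and between the members, 0.12 to 0.75 for the machinery and 0.13 to 0.53 for other Zfp genes. The number of probe sets called by limma was 9, and it was 1 after quantile normalization, 196 with a filter at the median of mean signal, 340 with trend and robust priors, and 0 to 529 with 1 array left out, namely 529 without clone 1, 149 without clone 2, 1 without MOCK and 0 without WT, where 832 had an unadjusted p under 0.05. The cause was not tested. Averaging all probe sets of a gene changed nothing for the members, each of which has 1. No paired analysis was possible because the titles number the clones and not the controls. The members are near copies, and no fold is measured where a group lies below the negative controls.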
